A study of Homo sapiens with 6 samples.

Results

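POLR1C, NHP2, PPAN and NVL are 4 human genes whose products act in the nucleolus or in the making of ribosomes, and 6 probes for them were read on 6 2-colour arrays of RNA from Jurkat, a line grown from a human T-cell leukaemia. They are 4 of 4604 gene symbols on the array, and all 4 had a value on every array. The genes were chosen by symbol, with earlier results of these data known: POLR1C, NHP2 and PPAN had high means on the RPS3 siRNA arrays, and NVL had a large difference between the RPS3 and p65 siRNAs. Their RPS3 siRNA means and the differences between the siRNAs are therefore given as descriptions, with no test. The p65 siRNA means of POLR1C, NHP2 and PPAN did not enter that choice and were tested. The slopes over time were tested too. Where they use arrays that chose a gene, which differed in spread, their p-values are not free of that choice.

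Ribosome assembly starts in the nucleolus, where RNA polymerase I transcribes the precursor of the large ribosomal RNAs. Small nucleolar ribonucleoproteins guide chemical modification of this precursor, and a long series of assembly factors folds and cuts it while ribosomal proteins are added, RPS3 among those of the small subunit. T cells make more ribosomes when they are activated. NF-kB, of which p65 (encoded by RELA) is a subunit, is a transcription factor released by T-cell receptor signals.

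On each array Jurkat cells transfected with RPS3 siRNA or p65 siRNA (labelled with Cy5) were set against Jurkat cells transfected with a nonspecific siRNA (labelled with Cy3), both stimulated by 1 ug of anti-CD3/CD28 for the same 1, 3 or 6 h. Each siRNA had 3 arrays, 1 per time, so that no time point had a replicate, and no label states whether separate cultures were used. Values are log2 ratios centred on the median of the array, siRNA over control, which is the likely direction and not stated with the values. A log2 base is assumed, and with a natural log every size would be larger on the log2 scale. In such bulk RNA a changed number of cells and a changed RNA level per cell cannot be told apart, and ratios give no level, so that the T-cell identity of the line could not be checked from its markers.

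Several facts of the arrays bear on the values below. Blank cells made up 15.1% of the RPS3 siRNA 6 h array and 14.8% of the p65 siRNA 6 h array, against 5.40% to 10.1% of the other 4. The standard deviation of an array's log2 ratios ran from 0.26 to 0.51. The RPS3 probe averaged -2.16 ± 0.62 on the RPS3 siRNA arrays and 0.41 ± 0.61 on the p65 siRNA arrays (SD, n = 3 each). RELA averaged -0.54 ± 0.15 on the RPS3 siRNA arrays and -0.49 ± 0.09 on the p65 siRNA arrays, so the p65 target was no lower with its own siRNA. The labels carry experiment ID numbers that form 2 runs without a gap, called ID series here, the first holding the RPS3 3 h and p65 1 h arrays and the second the other 4. Over the 7267 features tested, the deviation of the RPS3 3 h array from its group mean correlated at 0.574 with that of the p65 1 h array, from the same ID series, and at 0.096 with that of the p65 3 h array. The RPS3 1 h array correlated at 0.536 with the p65 3 h array and at 0.010 with the p65 1 h array, while the 2 arrays of 6 h correlated at 0.756. Other pairs within the second series were negative: RPS3 1 h with p65 6 h at -0.515, and RPS3 6 h with p65 3 h at -0.507. At 1 and 3 h the stimulation time and the ID series therefore cannot be told apart within a siRNA. The time-matched differences, the slopes and the order of 1 and 3 h given below rest on the labelled times. These correlations do not bear out the labels of 1 and 3 h. Whether 1 h and 3 h labels of a siRNA are exchanged was not tested.

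The promoters are shown because the series concerns a transcription factor, p65. The 250 bases before each annotated start (RefSeq, GRCh38.p14, in the direction of the gene) were searched on both strands for the NF-kB consensus, for CACGTG, the E-box that MYC binds in many ribosome assembly genes, and for CCGGAAG, a core of sites bound by ETS factors, which was added after the sequences had been read. Capitals mark CCGGAAG or its reverse complement, the only motif of the 3 with a match. The windows are chr6:43516839-43517088 on the plus strand for POLR1C, chr5:178153886-178154135 on the minus strand for NHP2, chr19:10106112-10106361 on the plus strand for PPAN, and chr1:224330173-224330422 on the minus strand for NVL.
POLR1C: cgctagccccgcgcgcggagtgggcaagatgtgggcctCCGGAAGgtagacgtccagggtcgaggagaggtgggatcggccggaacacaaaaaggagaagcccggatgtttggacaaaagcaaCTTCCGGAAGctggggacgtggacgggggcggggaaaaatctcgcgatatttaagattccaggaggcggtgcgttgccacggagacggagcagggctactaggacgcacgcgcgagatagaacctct
NHP2: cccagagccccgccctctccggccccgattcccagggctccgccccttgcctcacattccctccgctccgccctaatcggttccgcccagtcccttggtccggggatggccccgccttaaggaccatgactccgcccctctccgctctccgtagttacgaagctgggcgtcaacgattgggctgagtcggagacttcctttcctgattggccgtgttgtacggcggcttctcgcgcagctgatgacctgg
PPAN: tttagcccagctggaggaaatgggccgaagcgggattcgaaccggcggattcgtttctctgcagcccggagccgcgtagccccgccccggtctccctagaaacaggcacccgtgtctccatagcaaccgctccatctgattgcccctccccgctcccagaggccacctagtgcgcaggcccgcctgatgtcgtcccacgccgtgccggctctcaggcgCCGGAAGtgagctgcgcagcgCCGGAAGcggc
NVL: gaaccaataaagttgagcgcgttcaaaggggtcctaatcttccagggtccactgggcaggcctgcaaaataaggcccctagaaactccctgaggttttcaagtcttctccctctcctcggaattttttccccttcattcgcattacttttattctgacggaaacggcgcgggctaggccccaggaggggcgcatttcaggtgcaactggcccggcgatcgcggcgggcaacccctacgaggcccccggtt
POLR1C held 3 matches to CCGGAAG, of which 2 overlap on opposite strands, and PPAN held 2. NHP2 and NVL held 0. None of the windows had these letters of an NF-kB or E-box motif, and a second annotated PPAN start, whose window overlaps the one shown, had 0 matches to all 3 motifs. Among 4975 promoter windows of the tested genes, 12.5% held the NF-kB consensus, 8.04% the E-box and 11.4% CCGGAAG. In 43 windows of the tested genes of the ribosome assembly lists described below the shares were 9.30%, 16.3% and 27.9%. A match is a description of the letters and not a bound site.

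POLR1C encodes a subunit shared by RNA polymerases I and III, the enzymes of ribosomal RNA, transfer RNA and 5S RNA synthesis. Its probe, 29238_1, had log2 ratios of 0.074 at 1 h, 0.41 at 3 h and 0.89 at 6 h with RPS3 siRNA, and of 0.52, 0.17 and 0.44 with p65 siRNA. The ratio was thus above 0 on all 6 arrays, the RPS3 siRNA values climbed with time, and the groups overlapped. The mean was 0.46 ± 0.41 with RPS3 siRNA and 0.37 ± 0.18 with p65 siRNA (SD, n = 3 each), or 1.37-fold and 1.30-fold over control. Among the 7267 features POLR1C stood, in the order of the times, at the 62.3, 97.9 and 96.5 percentile of the RPS3 siRNA arrays, and at the 98.9, 71.9 and 89.6 percentile of the p65 siRNA arrays. The p65 siRNA mean did not pass (limma adjusted p = 0.935, unadjusted p = 0.0491), where 2.71% of features were higher at an unadjusted p under 0.05.

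Between the siRNAs POLR1C had no steady difference: RPS3 minus p65 was -0.44 at 1 h, 0.24 at 3 h and 0.46 at 6 h, a mean of 0.08 ± 0.47. Within ID series 1 the difference was -0.11, and within series 2 it was 0.18. It became -0.13 without the RPS3 siRNA 6 h array and 0.28 without the RPS3 siRNA 1 h array. It was -0.017 without the p65 siRNA 3 h array. Leaving out the RPS3 siRNA 6 h array left a POLR1C mean of 0.24 with RPS3 siRNA.

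NHP2 encodes a core protein of the H/ACA ribonucleoproteins, which guide pseudouridylation of ribosomal RNA and are also part of telomerase. With RPS3 siRNA its probe, 33040_1, had ratios of 0.12 at 1 h, 0.26 at 3 h and 0.73 at 6 h, and with p65 siRNA of 0.078, 0.046 and 0.31. All 6 values lay above 0, both siRNAs were highest at 6 h, and the groups overlapped because the p65 siRNA value at 6 h exceeded the RPS3 siRNA values at 1 and 3 h. The mean was 0.37 ± 0.32 with RPS3 siRNA and 0.14 ± 0.14 with p65 siRNA, and the latest RPS3 siRNA array put NHP2 at the 94.4 percentile. On the p65 siRNA arrays it did not pass (limma adjusted p = 0.946). The 6 h arrays weighed on both means: the RPS3 siRNA mean was 0.19 without its 6 h array, and the p65 siRNA mean was 0.062 without its own. The RPS3 minus p65 difference was 0.042, 0.22 and 0.42 at 1, 3 and 6 h, a mean of 0.23 ± 0.19, and within the ID series it was 0.18 and 0.25. Without the RPS3 siRNA 6 h array the mean difference was 0.047, and without the RPS3 siRNA 1 h array it was 0.35.

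PPAN encodes a nucleolar protein of large subunit assembly, related to the yeast factor Ssf1. It is the only one of the 4 genes with several probes. Averaged over its 3 probes the ratio with RPS3 siRNA was 0.23 at 1 h, 0.49 at 3 h and 0.30 at 6 h, and with p65 siRNA 0.20, 0.18 and -0.032. Every RPS3 siRNA value lay above every p65 siRNA value, although the closest pair differed by only 0.033 at 1 h. The mean was 0.34 ± 0.13 with RPS3 siRNA and 0.11 ± 0.13 with p65 siRNA, a difference of 0.23 ± 0.17 over the times, or 1.17-fold. Within the ID series the difference was 0.29 and 0.19. On the p65 siRNA arrays PPAN did not pass (limma adjusted p = 0.946), and its mean there was 0.19 without the p65 siRNA 6 h array and 0.072 without the p65 siRNA 1 h array. As an average of 3 probes PPAN was the least variable of the 4, with a range of 0.52 over the 6 arrays. The other genes had a single probe each, and averaging can narrow a range. The largest PPAN ratio came at 3 h with RPS3 siRNA, where it stood at the 99.0 percentile.

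The PPAN probes shared the sign of the RPS3 siRNA mean and differed in how far the siRNAs parted. Probe 34807_1 read 0.34, 0.62 and 0.38 with RPS3 siRNA, in the order of the times, and 0.30, -0.098 and -0.075 with p65 siRNA, without overlap and with a mean difference of 0.41. Probe 23874_1 read 0.14, 0.44 and 0.33 with RPS3 siRNA and 0.15, 0.36 and -0.07 with p65 siRNA, with a mean difference of 0.16. Probe 32404_1 read 0.22, 0.40 and 0.19 with RPS3 siRNA and 0.16, 0.26 and 0.049 with p65 siRNA, with a mean difference of 0.11. The groups overlapped on these last 2 probes, so only probe 34807_1 separated them when the probes were read alone. All 3 probes carry the same PPAN accession in the platform annotation. RefSeq also lists a read-through gene, PPAN-P2RY11, that overlaps PPAN. Whether these probes tell the 2 apart is not known, since their sequences were not available.

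**Figure D1:**
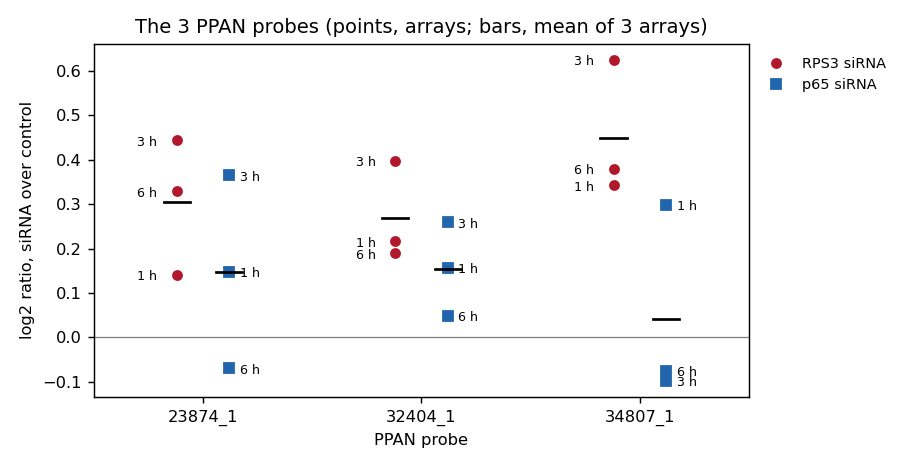
Log2 ratios (vertical axis, siRNA over control) of the 3 PPAN probes on the 3 RPS3 siRNA arrays (red circles) and the 3 p65 siRNA arrays (blue squares), each point 1 array with its time and each black bar the mean of 3 arrays. The groups part on probe 34807_1, with means of 0.45 and 0.04, and overlap on the other two.

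NVL encodes a nucleolar ATPase of the AAA family that acts in large subunit maturation. Probe 33176_1 gave -0.21 at 1 h, 0.016 at 3 h and 1.25 at 6 h with RPS3 siRNA, and -0.61, -0.59 and -0.23 with p65 siRNA. The p65 siRNA values were all below 0, and every RPS3 siRNA value lay above every p65 siRNA value. The separation was slight: the closest values were -0.2055 on the RPS3 siRNA array at 1 h and -0.2300 on the p65 siRNA array at 6 h. NVL was the most variable of the 4 genes, with a range of 1.86 over the 6 arrays. The mean was 0.35 ± 0.79 with RPS3 siRNA and -0.48 ± 0.21 with p65 siRNA, or 1.28-fold and 0.72-fold of control. The RPS3 minus p65 difference was 0.40, 0.60 and 1.48 at the successive times, with a mean of 0.83 ± 0.57 (1.78-fold), and within the ID series it was 0.62 and 0.93.

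The RPS3 siRNA 6 h array set much of the size of the NVL mean with RPS3 siRNA and of the difference. The p65 siRNA mean of NVL ran from -0.60 to -0.41 with each array left out in turn. Without the RPS3 siRNA 6 h array the RPS3 siRNA mean was -0.09 and the difference between the siRNAs was 0.38. Without the RPS3 siRNA 1 h array the RPS3 siRNA mean was 0.63 and the difference 1.11. On the p65 siRNA arrays NVL stood at the 1.39, 5.02 and 18.0 percentile at 1, 3 and 6 h. On the RPS3 siRNA arrays it stood at the 23.1, 52.6 and 99.0 percentile.

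**Figure D2:**
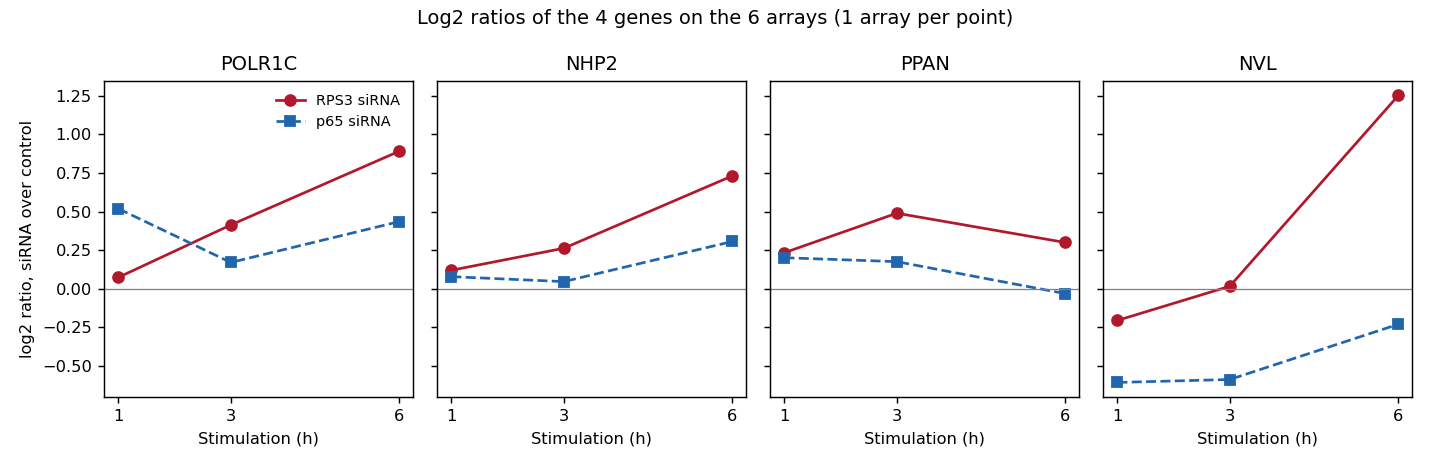
Log2 ratio (vertical axis, siRNA over control) of POLR1C, NHP2, PPAN and NVL against hours of stimulation, 1 array per point, with RPS3 siRNA as red circles and p65 siRNA as blue squares. On the RPS3 siRNA arrays POLR1C, NHP2 and NVL were highest at 6 h, at 0.89, 0.73 and 1.25, and PPAN was highest at 3 h, at 0.49.

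Set side by side, 3 of the 4 genes were above 0 on all RPS3 siRNA arrays, as were 16.2% of all features, and 2 of the 4 were above 0 on all p65 siRNA arrays, as were 13.2% of all features. NVL alone of the 4 lay below 0 on every p65 siRNA array, which 9.67% of features did. The RPS3 siRNA value exceeded the p65 siRNA value at each time for NHP2, PPAN and NVL, as it did for 12.9% of features, and the groups were fully separate, with RPS3 siRNA higher, for PPAN and NVL, as for 3.11% of features. The RPS3 siRNA means and the differences chose the genes, so nothing is read from the counts that use the RPS3 siRNA arrays.

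**Figure D3:**
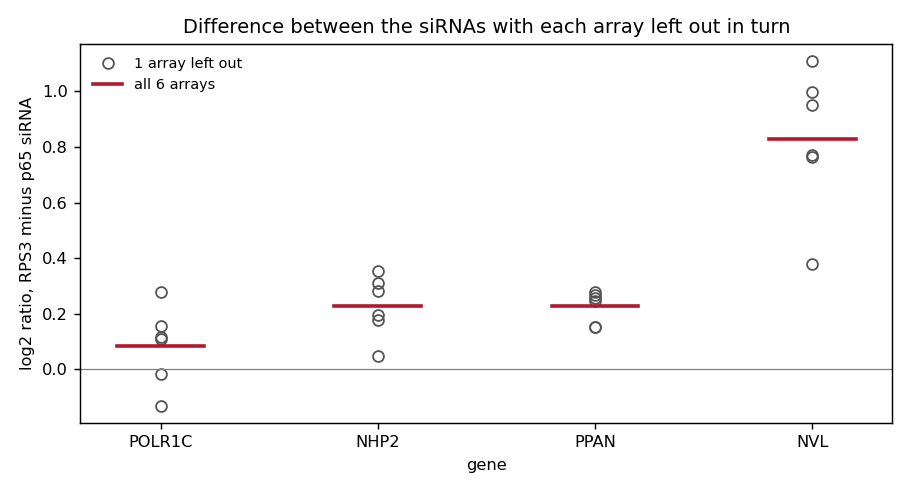
Mean log2 ratio with RPS3 siRNA minus that with p65 siRNA (vertical axis) for the 4 genes, with all 6 arrays (red bars) and with each array left out in turn (open circles). POLR1C ran from -0.13 to 0.28, NHP2 from 0.047 to 0.35, PPAN from 0.15 to 0.28 and NVL from 0.38 to 1.11.

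The time course was tested as a slope of the log2 ratio per hour, with both siRNAs sharing 1 slope. NVL had the steepest slope of the 4, 0.19 ± 0.06 per hour (SE, 6 arrays), and did not pass (limma adjusted p = 0.123, unadjusted p = 0.0107). NHP2 had a slope of 0.087 ± 0.035 (adjusted p = 0.191, unadjusted p = 0.0393), POLR1C 0.077 ± 0.048 (adjusted p = 0.359) and PPAN -0.021 ± 0.035 (adjusted p = 0.756), all by limma over 7267 features. In this fit 0 features passed, and 14.2% were higher with time and 9.19% lower at an unadjusted p under 0.05. Without the p65 siRNA 1 h array the NVL slope was 0.25 and passed (limma adjusted p = 0.0388), in a fit that called 607 features. Without the RPS3 siRNA 6 h array it was 0.083. With each array left out in turn the slope ran from 0.016 to 0.14 for POLR1C and from 0.052 to 0.11 for NHP2, and with quantile normalization that of POLR1C was 0.0067.

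With a slope for each siRNA, a fit chosen after the data were seen, the RPS3 siRNA slopes were 0.30 for NVL, 0.16 for POLR1C, 0.12 for NHP2 and 0.0072 for PPAN. The p65 siRNA slopes were 0.079 for NVL, -0.0083 for POLR1C, 0.049 for NHP2 and -0.048 for PPAN. The difference between the slopes was 0.22 ± 0.09 for NVL and 0.17 ± 0.08 for POLR1C (SE), and none of the 4 passed (each with a limma adjusted p of 1.00, rounded; unadjusted p = 0.0393 and 0.0808 for these 2). The RPS3 siRNA slope of POLR1C (unadjusted p = 0.0283) and NVL (unadjusted p = 0.00173) did not pass in limma, with adjusted p of 0.348 and 0.313, where 8.61% of features were higher and 3.94% lower at an unadjusted p under 0.05. None of the 4 p65 siRNA slopes had an unadjusted p under 0.05, against 5.28% of features higher and 1.13% lower. For the difference of the slopes 0.385% of features were higher, NVL among them, and 1.38% lower. The RPS3 minus p65 difference that chose NVL was largest at 6 h, so nothing is read from its place among these. On the RPS3 siRNA arrays 3 of the 4 genes climbed from 1 to 3 to 6 h, as did 25.6% of features, and on the p65 siRNA arrays only NVL did, as did 13.6% of features.

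The 20 probes closest in number to the NVL probe had a median of -0.02 on the RPS3 siRNA 6 h array, where NVL read 1.25. For POLR1C that median was -0.22 and for NHP2 0.14 (0.89 and 0.73 for the genes themselves), and for the 3 PPAN probes it was 0.13, -0.013 and -0.12. How probe numbers relate to places on the slide is not given in the sources used here.

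Other ribosome assembly genes were taken from 6 lists by role, drawn up with the earlier results known. They named 167 further genes, and the array held 39 of these, with 36 tested. On the RPS3 siRNA arrays 27 of the 36 averaged above 0, with a median of 0.10, beside 52.9% of all features above 0 and a median of 0.012. On the p65 siRNA arrays 16 of the 36 averaged above 0, with a median of -0.05, beside 54.7% of all features and a median of 0.018. RPS3 minus p65 was above 0 for 28 of the 36, with a median of 0.15, beside 49.2% of all features and a median of -0.0032. By limma 0 of the 36 passed in any of these contrasts, as did 0 of 7267 features. At an unadjusted p under 0.05 there was 1 higher and 1 lower of the 36 with RPS3 siRNA (3.99% and 4.76% of all features) and 0 higher and 2 lower with p65 siRNA (2.71% and 2.24%). For the difference there were 0 of the 36 in either direction (0.936% of all features higher and 1.61% lower). These medians rest on single arrays. That of the difference was 0.034 when the RPS3 siRNA 6 h array was left out and 0.024 when the p65 siRNA 3 h array was. The RPS3 siRNA median was 0.040 without the 6 h array and 0.17 without the 1 h array, and the p65 siRNA median turned to 0.062 without the 3 h array and was -0.0048 without the 1 h array.

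The other assembly genes with the highest means on the RPS3 siRNA arrays were RPP30, a protein of ribonuclease P, at 0.58 ± 0.99, and NOP56, a core protein of the C/D small nucleolar ribonucleoproteins, at 0.53 ± 0.68. Both were also the highest on the p65 siRNA arrays, RPP30 at 0.34 ± 1.52 and NOP56 at 0.34 ± 0.61. The lowest with RPS3 siRNA were HEATR1, a factor of small subunit processing, at -0.30 ± 0.20, and KRR1, of the same step, at -0.28 ± 0.09. With p65 siRNA the lowest were nucleolin, NCL, at -0.55 ± 0.91, and HEATR1 at -0.53 ± 0.47. None of these means passed.

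The largest differences between the siRNAs among these genes were those of NMD3, the export adaptor of the large subunit, at 0.64 ± 0.67, and NOC3L, a large subunit factor, at 0.61 ± 0.40. The lowest were FBL, the methyltransferase fibrillarin, at -0.22 ± 0.35, and nucleophosmin, NPM1, at -0.09 ± 0.18. NVL, at 0.83, lay above all 36, and POLR1C, at 0.08, below their median. NVL was chosen for a large difference, so nothing is read from its rank. RPS3 siRNA exceeded p65 siRNA at each time for 9 of the 36 (25.0%, against 12.9% of all features), and the groups were fully separate with RPS3 siRNA higher for 0 of the 36, against 3.11% of all features.

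By role, large subunit factors, 12 genes with PPAN and NVL, had a median difference of 0.23, with 11 above 0. The values that chose PPAN and NVL enter these figures. Those that chose NHP2 and POLR1C likewise enter the figures of their lists. Small subunit factors had a median difference of 0.15 over 9 genes, small nucleolar ribonucleoproteins 0.13 over 4, NHP2 among them, and RNA polymerase I genes 0.0060 over 5, POLR1C among them. Other nucleolar proteins had a median difference of 0.20 with 6 of 7 above 0, and the exosome and its cofactors 0.053 with 3 of 3 above 0. Of all features 49.2% had a difference above 0, with a median of -0.0032. No gene of these lists passed for the difference by limma. With each array left out in turn the median ran from -0.14 to 0.32 for the small nucleolar ribonucleoproteins, below 0 without the RPS3 siRNA 6 h or the p65 siRNA 3 h array. It ran from 0.030 (without the RPS3 siRNA 6 h array) to 0.20 for small subunit factors, from -0.017 (without the p65 siRNA 3 h array) to 0.11 for RNA polymerase I genes, from 0.025 (without the p65 siRNA 3 h array) to 0.16 for the other nucleolar proteins, and from -0.0078 (without the p65 siRNA 1 h array) to 0.13 for the exosome list. At 1, 3 and 6 h the 12 large subunit genes had medians of -0.17, 0.064 and 0.60 with RPS3 siRNA and of -0.10, -0.31 and 0.22 with p65 siRNA. The median difference of the large subunit genes was 0.051 without the RPS3 siRNA 6 h array and 0.53 without the p65 siRNA 6 h array.

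POLR1C is also a subunit of RNA polymerase III, and 4 genes of that enzyme were tested. On the p65 siRNA arrays all 4 averaged above 0, POLR3E at 0.44 ± 0.27, POLR2H at 0.40 ± 0.04, POLR1C at 0.37 and POLR1D at 0.067 ± 0.091. Of all features 54.7% averaged above 0 on these arrays. None of the 4 means passed (limma adjusted p of 0.935 to 0.975). POLR2H, a subunit common to all 3 polymerases, had -0.10, -0.052 and -0.058 with RPS3 siRNA and 0.40, 0.36 and 0.45 with p65 siRNA, a difference of -0.47 opposite in sign to that of POLR1C. The POLR2H difference did not pass (limma adjusted p = 1.00, rounded).

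With time, 24 of the 36 other assembly genes had a slope above 0, with a median of 0.066 per hour, beside 47.9% of all features and a median of -0.0037. At an unadjusted p under 0.05, 15 of the 36 were higher with time and 0 lower, against 14.2% and 9.19% of all features, and 0 passed. The steepest were RPP30 at 0.43 ± 0.10 per hour (SE, limma adjusted p = 0.107) and NOC3L at 0.42 ± 0.07 (adjusted p = 0.0866). NOC3L had ratios of -0.40 at 1 h, -0.41 at 3 h and 1.90 at 6 h with RPS3 siRNA, and of -0.89, -0.69 and 0.84 with p65 siRNA, so that both siRNAs were high at 6 h. The lowest slopes were those of MDN1, an ATPase of large subunit assembly, at -0.087 ± 0.041, and TAF1D, of the RNA polymerase I initiation complex, at -0.080 ± 0.039.

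The marker lists moved with the contrasts as well. Of 12 T cell markers tested, 11 averaged above 0 with RPS3 siRNA (median 0.17) and 5 with p65 siRNA (median -0.014), and RPS3 minus p65 was above 0 for 8, with a median of 0.11. Of all features 52.9%, 54.7% and 49.2% were above 0 in these contrasts, in that order. Of 12 markers of other lineages 6 averaged above 0 with RPS3 siRNA (median 0.0049) and 11 with p65 siRNA (median 0.14), and the difference was above 0 for 4, with a median of -0.11. The T cell markers also had slopes above 0, in 10 of the 12 tested, and 9 were higher with time at an unadjusted p under 0.05, with a median slope of 0.12 per hour. Of all features 47.9% had a slope above 0, and 14.2% were higher with time at that threshold. The median of the T cell markers was -0.11, 0.0018 and 0.58 on the RPS3 siRNA arrays and -0.083, -0.18 and 0.30 on the p65 siRNA arrays. The 12 tested markers of other lineages had a median slope of 0.018, and their median was highest, at 0.37, on the p65 siRNA 3 h array, against -0.042 to 0.062 on the other 5 arrays. The part of these shifts in the means, differences and slopes of the 4 genes and of the other assembly genes was not tested.

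**Figure D4:**
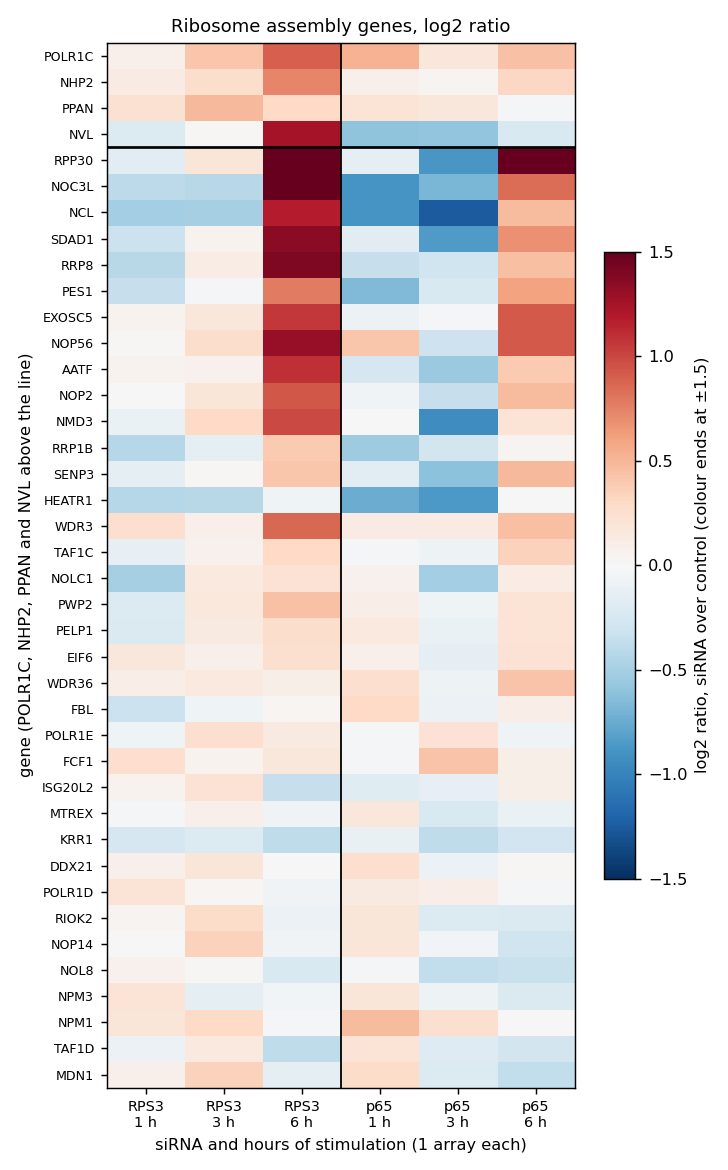
Log2 ratios (colour, siRNA over control, ending at 1.5 in either direction) of POLR1C, NHP2, PPAN and NVL, above the line, and of 36 other ribosome assembly genes ordered by slope, on the 3 RPS3 siRNA arrays and the 3 p65 siRNA arrays. The genes at the top of the lower block, such as NOC3L, were high on both 6 h arrays, and those at the bottom, such as MDN1, were not.

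The genes most like each of the 4 were found by the root-mean-square difference of the log2 ratio over the 6 arrays, among named genes. For POLR1C they were RUVBL2, an ATPase that helps to assemble small nucleolar ribonucleoproteins, at 0.11, ODC1, ornithine decarboxylase, at 0.12, and PRSS1 at 0.15. In the order of the times RUVBL2 had 0.094, 0.40 and 0.74 with RPS3 siRNA and 0.37, 0.13 and 0.59 with p65 siRNA. For NHP2 they were UROS (0.061), DPF2 (0.065) and IFITM3 (0.072), and for PPAN CREBRF (0.074), ZFP90 (0.082) and TCF12 (0.11). NVL had no neighbour as close: PAXBP1 (0.20), CUTALP (0.22) and UBA6 (0.24) were the nearest. The measure is not scaled to a gene's range, which was largest for NVL, so these distances do not show that its profile was less shared. All of these profiles come from the same 6 arrays and 3931 other named genes were compared.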

How the data were processed

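The authors deposited log ratios of the 2 channels per probe, taken here as log2 since their base is not stated, for 15246 probes on 6 arrays of Jurkat RNA, already centred near 0. Per the labels, Cy5 carried the siRNA sample and Cy3 the control. Background correction, normalization and the rule for blanks are not given in the sources used here, and base 10 was excluded because values reached 9.52.

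Here each array was centred on its median, probes of 1 symbol were averaged per array, and the 7267 features (3932 named) with a value on all 6 arrays entered lmFit and eBayes of limma 3.58.1 under R 4.3.3. Times stood as replicates of a siRNA. Means were tested against 0, which leaves out the control's own spread. The difference, and the slope per hour with both siRNAs in the fit, were tested likewise, with Benjamini-Hochberg adjustment over all features and a threshold of 0.05. The fit was tested on simulated data with independent arrays and with effects larger than those of the 4 genes. That test therefore does not show how the fit performs at effects of their size. P-values reflect only how these arrays vary, which may be technical, and their number limits the precision; channel intensities were not used here.

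The 4 genes and the lists were chosen with earlier results of these data known. Named list genes are the 2 highest and 2 lowest per contrast. Neighbours are the 3 named genes closest in profile to a gene whose range is at least 0.5; RPS3 and RELA serve as checks. Alternatives were other centring, quantile normalization, other probe summaries and filters, the time point as a block, the ID series as a covariate, and arrays left out.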

Additional observations from a re-analysis of the deposited data

How the results depend on the processing

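The direction of the RPS3 siRNA means of POLR1C, NHP2 and PPAN, of all p65 siRNA means and of the NHP2, PPAN and NVL differences held in every alternative run. Slopes near 0 turned over. The POLR1C slope was -0.0021 without both 6 h arrays and -0.0083 on the p65 siRNA arrays alone. The PPAN slope was 0.0045 without the p65 siRNA 6 h array, 0.058 without both 6 h arrays and 0.0072 on the RPS3 siRNA arrays alone. The PPAN difference was 0.41 by probe 34807_1. The median slope of the 36 other assembly genes was -0.042 without both 6 h arrays. With 1 array left out, slopes ran from -0.052 to 0.0045 for PPAN, and from 0.083 to 0.26 for NVL (limma adjusted p of 0.0388 to 0.894).

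Counts past the threshold, 0 in each contrast with all arrays, were 2 for the RPS3 siRNA mean with quantile normalization, 7 with single probes, 3 with the time point as replicate block and 3 without both 6 h arrays, and ran from 0 to 2 with 1 array left out. For the difference they were 2 with the time point as replicate block and 1 without both 6 h arrays. For the slope they ran from 0 to 607 with 1 array left out, being 607 without the p65 siRNA 1 h array and, in another fit, 273 without the p65 siRNA 3 h array. The cause of these changes was not tested.

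The labels give no replicate numbers that pair the arrays. Arrays of 1 time correlated at 0.010, 0.096 and 0.756 in their deviations, so 1 and 3 h gave no sign of pairing, and the block changed no call for the p65 siRNA means of POLR1C, NHP2 and PPAN, the values tested with it. The slope was not fitted with the block, which holds time already.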
